A study of Nicotiana tabacum with 6 samples.

Results

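The xanthophyll cycle genes VDE and ZEP were measured in leaves of tobacco (Nicotiana tabacum, cultivar Petit Havanna in the labels' spelling) on arrays designed for tomato. The members are all probe sets, each a group of short probes summarised to 1 value, whose symbol in the platform's annotation is VDE or ZEP, and each is shown on its own. They are 2 of 803 tomato genes with a symbol on the array, read by 3 of 10101 tested probe sets. The probe sets Les.3958.1.S1_at and Les.3958.1.A1_at carry the symbol VDE (tomato gene ID 543696) and are called the S1 and the A1 probe set here. Les.112.1.S1_at carries the symbol ZEP (tomato gene ID 544162).

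The xanthophyll cycle interconverts carotenoids of the thylakoid membrane. VDE, the violaxanthin de-epoxidase, lies in the thylakoid lumen, is active when the lumen turns acid, and uses ascorbate to turn violaxanthin by way of antheraxanthin into zeaxanthin, which promotes the release of excess light energy as heat in the photosystem II antenna. ZEP, the zeaxanthin epoxidase, runs the reverse reactions in low light and darkness, and so also makes the violaxanthin from which neoxanthin and abscisic acid are derived.

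There were 2 arrays for wild type, labelled normal, 2 for a psaA deletion mutant and 2 for a psbA deletion mutant. The plastid gene psaA encodes a reaction-centre protein of photosystem I, and psbA encodes the D1 protein of photosystem II. By the labels, which give 1 growth text to all samples, plants were kept in culture bottles with spectinomycin at 500 mg/L. They had light for 16 h and darkness for 8 h, and leaves were taken after 2 to 3 weeks of subculture. The light intensity is given as 25 to 30 mmol photons per m2 per s, a unit that is doubtful. Whether wild type was in fact kept on spectinomycin is not clear from this text, so a part of the drug in any difference from wild type cannot be told apart from that of the deletion. The labels speak of biological replicates without naming separate plants or lines, so p-values measure only the spread between these arrays.

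Values are log2 values that the authors centred per probe set on the median of the 6 arrays. A value therefore says how far an array stood from the other arrays, and not how abundant a transcript was, and no level can be set between VDE and ZEP. The base of the logarithm was taken as 2, and each percentage below rests on that. Tobacco RNA binds tomato probes only as far as the sequences match. The tobacco gene table lists VDE as a synonym of LOC107763628 and lists no entry under ZEP, and no probe set was tied to a tobacco locus. What a gene does is background on the gene of that symbol. Over all tested probe sets the 2 arrays of a group differed with an SD of 0.206 to 0.229, and arrays of different groups with an SD of 0.308 to 0.371.

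The S1 probe set of VDE read 1.08 and 1.16 in wild type, 0.01 and -0.01 in the psbA mutant, and -0.58 and -0.53 in the psaA mutant. The 3 genotypes were fully separate, with wild type highest and the psaA mutant lowest, and the replicate arrays lay 0.0774, 0.0223 and 0.0511 apart in the same order. The psbA arrays were the middle pair of the 6, so that their mean of 0 follows from the centring. ZEP read 0.21 and 0.28 in wild type, -0.08 and 0.08 in the psbA mutant, and -0.65 and -0.46 in the psaA mutant. The genotypes stood in the same order as at S1 and did not overlap, with a step of 0.24 between the means of wild type and the psbA mutant, beside the 0.167 between the psbA arrays. The A1 probe set of VDE read 0.46 and 0.16 in wild type, -0.04 and -0.19 in the psbA mutant, and 0.04 and -0.27 in the psaA mutant. There the arrays of both mutants lay below wild type and overlapped each other, and the replicate arrays lay 0.298 apart in wild type and 0.303 in the psaA mutant, a gap that 85.9% and 86.6% of tested probe sets did not exceed.

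**Figure D1:**
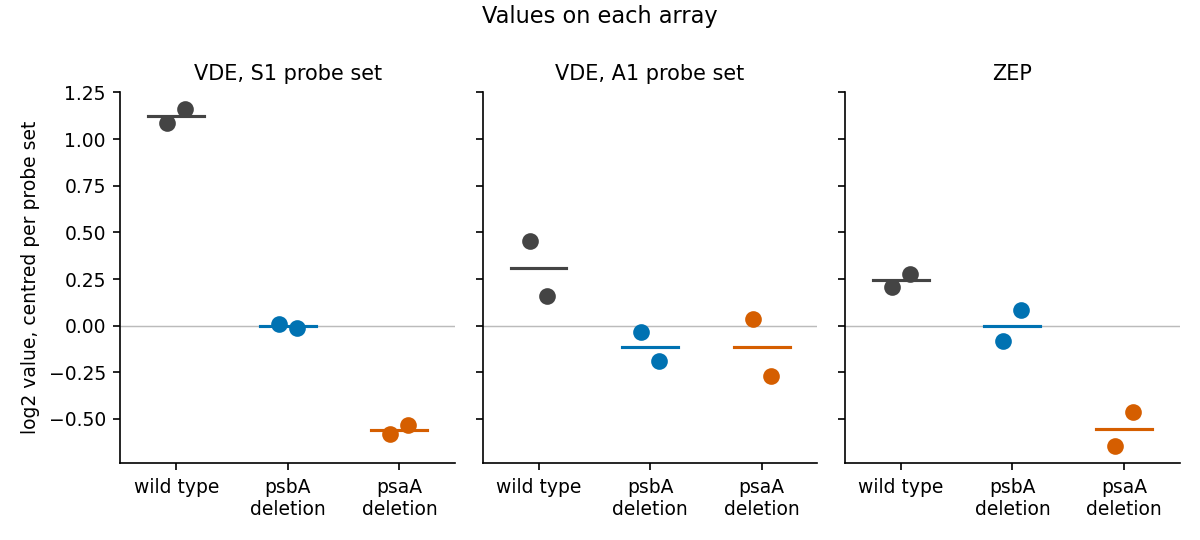
Log2 values, centred per probe set (vertical axis), of the S1 and A1 probe sets of VDE and of ZEP on the 6 arrays, by genotype. Points are arrays and lines are means of 2. At S1 and at ZEP the genotypes do not overlap, with wild type highest and the psaA mutant lowest, while at A1 the mutants overlap each other.

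The psaA mutant was compared with wild type to ask what loss of the photosystem I gene does to transcripts of the cycle. Both VDE, at its S1 probe set, and ZEP were lower in the mutant, with the larger estimate for VDE. The comparisons of both mutants share the same wild-type arrays. At S1, VDE transcript signal was 31.2% of wild type (95% confidence interval 26.5% to 36.8%), a log2 difference of -1.68 (SE 0.103, n = 2 per group, limma adjusted p = 0.000104). This was the 20th lowest difference among the 10101 probe sets. ZEP stood at 57.6% of wild type (47.7% to 69.5%), with -0.80 (SE 0.119, limma adjusted p = 0.00373). At A1 the estimate was 74.6% (58.9% to 94.5%), with -0.42 (SE 0.149), and did not pass the threshold (limma adjusted p = 0.124). With 1 array left out the A1 difference ran from -0.57 to -0.27, being smallest without psaA replicate 2 or wild-type replicate 1, and did not pass. Scaled on added poly-A control RNAs it was -0.67 and passed (limma adjusted p = 0.0144). Thus 2 of 3 probe sets were called lower, against 6.06% of all tested probe sets, where a call is an adjusted p under 0.05. In leaf RNA, fewer cells of a type and less RNA per cell cannot be told apart. S1 and ZEP also passed with each of the 6 arrays left out, at log2 differences of -1.72 to -1.64 for S1 and -0.89 to -0.70 for ZEP, where the largest adjusted p was 0.0419, without psaA replicate 1.

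In the psbA mutant, which lacks the photosystem II gene, VDE was again lower at S1, while the lower estimate for ZEP did not pass. VDE signal at S1 was 45.9% of wild type (39.0% to 54.1%), a log2 difference of -1.12 (SE 0.103, n = 2 per group, limma adjusted p = 0.000507), the 68th lowest of 10101. ZEP gave 84.5% (70.0% to 102%), with -0.24 (SE 0.119, limma adjusted p = 0.255). The A1 probe set gave 74.8% (59.0% to 94.8%), with -0.42 and adjusted p = 0.123, much the value it had in the psaA mutant. With 1 array left out neither passed, ZEP at -0.33 to -0.16, smallest without psbA replicate 1, and A1 at -0.57 to -0.27, smallest without wild-type replicate 1. So 1 of 3 probe sets was called lower, against 5.76% of all. The interval for ZEP reaches from a fall to 70.0% to no fall, and does not show that ZEP was the same in the psbA mutant and wild type. With poly-A scaling, which moved the median of all probe sets to -0.47, ZEP gave -0.73 and A1 gave -0.91 and both passed. Relative to the median of all probe sets they were -0.26 and -0.44 with or without this scaling. That follows from the scaling, which shifts all probe sets of an array alike.

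**Figure D2:**
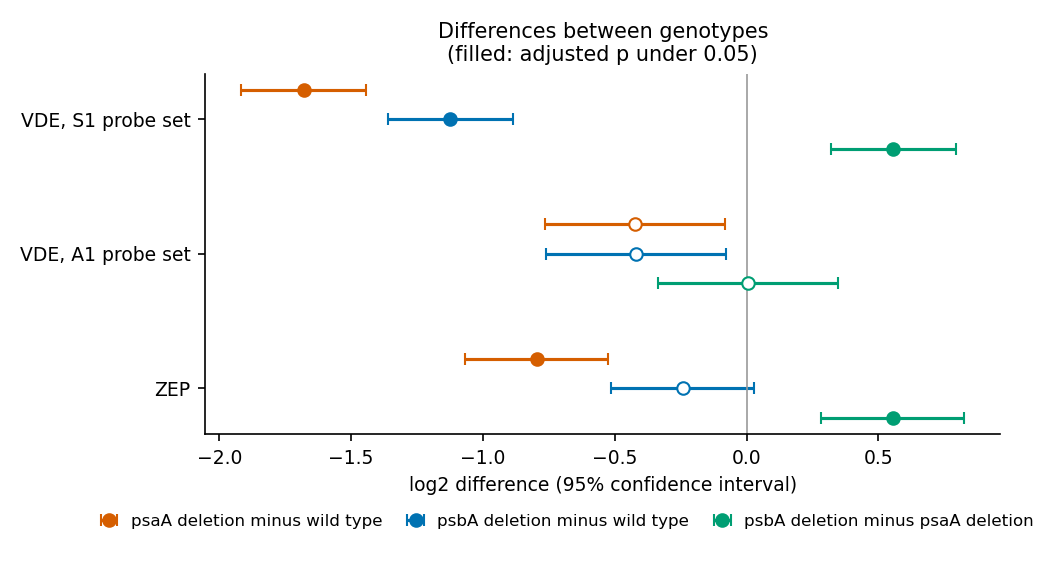
Log2 differences between genotypes (horizontal axis) with 95% confidence intervals for the S1 and A1 probe sets of VDE and for ZEP, filled where the adjusted p is under 0.05. For S1 and ZEP the psbA minus psaA differences coincide at 0.56 and 0.55, while their differences from wild type do not.

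A direct comparison of the mutants tests whether the deletions differ in effect. VDE at S1 and ZEP both lay higher when psbA was deleted than when psaA was, by nearly the same amount. The S1 difference was 0.56 (SE 0.103, n = 2 per group, limma adjusted p = 0.0234), so that the psbA mutant had 147.1% of the psaA signal (124.8% to 173%). ZEP differed by 0.55 (SE 0.119, limma adjusted p = 0.0403), or 146.8% (121.6% to 177%). At A1 the difference was 0.0042 with an interval from -0.34 to 0.35, which holds both a rise and a fall of that size. Here 2 of 3 probe sets were called higher, against 1.78% of all tested probe sets, with 2.2% called lower. These calls lie near the threshold. The ZEP call ended with any 1 of the 6 arrays left out (adjusted p up to 0.225), and the S1 call with any 1 of the 4 mutant arrays left out (adjusted p up to 0.141), and both ended with poly-A scaling (0.31 for each probe set, adjusted p = 0.168 for S1 and 0.195 for ZEP). The 2 probe sets share these arrays, so the likeness of their differences is a description.

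The order psaA mutant below psbA mutant below wild type, with no overlap between the arrays of the groups, held for S1 and ZEP and for 5.24% of all tested probe sets. For VDE at S1, both steps of this order were called. For ZEP only the step between the mutants was called, and that between the psbA mutant and wild type was not. At A1 neither step was called.

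Whether VDE and ZEP moved by unlike amounts was read from their difference on each array, in which any scaling of the whole array cancels. S1 minus ZEP was 0.87 and 0.89 in wild type, 0.06 and -0.07 in the psaA mutant and 0.09 and -0.09 in the psbA mutant. Against ZEP, the S1 signal of VDE was thus lower by 0.88 in either mutant than in wild type, with all 4 mutant arrays below both wild-type arrays. The exact two-sided permutation test of 4 mutant against 2 wild-type arrays gave p = 0.0667, the smallest that its 15 splits can give, so that no difference could pass 0.05 in this design, and 0.133 after Benjamini-Hochberg adjustment over the 4 such differences computed. With the mean of both VDE probe sets in place of S1 the difference was -0.39 (exact p = 0.2, adjusted 0.267), being -0.25 in the psaA and -0.53 in the psbA mutant. With A1 alone it was 0.098 (exact p = 0.867, adjusted 0.867), from opposite signs in the mutants, 0.37 in the psaA and -0.18 in the psbA mutant. On the single arrays A1 minus ZEP was 0.25 and -0.12 in wild type, 0.68 and 0.19 in the psaA mutant and 0.05 and -0.27 in the psbA mutant, so that each mutant overlapped wild type. Against ZEP, VDE was thus lower than wild type in the psaA mutant at S1 and not at A1, and in the psbA mutant the A1 estimate was lower too, within the spread of the arrays. The size of the gap of 0.88 at S1 depended on the normalization. With quantile normalization the differences from wild type were -1.43 for S1 and -0.83 for ZEP in the psaA mutant. In the psbA mutant they were -0.84 and -0.24, so that the gap was smaller in both mutants.

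The estimates for the 2 VDE probe sets also differed from each other, in a test that could not pass 0.05. A1 minus S1 was -0.63 and -1.004 in wild type, 0.62 and 0.26 in the psaA mutant and -0.05 and -0.18 in the psbA mutant. The mutant arrays were higher than wild type by 0.98 on average in this difference (exact p = 0.0667, again the smallest possible, adjusted 0.133). By mutant it was 1.26 in psaA and 0.70 in psbA. With quantile normalization the average was 0.74 (exact p = 0.133). The IDs of the 2 probe sets differ only in S1 against A1, and whether they read the same strand or the same part of the transcript is not given in the sources used here. Since centring removed the signal level, it also cannot be seen how near to background either lay.

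Of the other genes of the pathway, those above the cycle mostly fell with it in the psaA mutant. Steps from phytoene to the hydroxylated carotenoids were read by 7 probe sets of 5 genes, of which 5 fell and 0 rose in the psaA mutant, against 6.06% lower and 4.66% higher among all tested. Their median difference was -0.68, against 0.02 over all probe sets. ZDS, the zeta-carotene desaturase, gave -1.13, CrtR-b1, a carotene hydroxylase whose reaction leads to zeaxanthin, -1.01, and PSY2, a phytoene synthase, -0.87. In the psbA mutant 3 of the 7 fell and 0 rose, against 5.76% lower and 5.41% higher among all tested, with ZDS at -0.72, PSY2 at -0.58 and PDS, the phytoene desaturase, at -0.41. CrtR-b1 resembled ZEP in that its difference was not called in the psbA mutant (-0.07, adjusted p = 0.809) and was called between the mutants (0.93, limma adjusted p = 0.0104). The order of genotypes seen at S1 and ZEP held for 4 of these 7 probe sets, against 5.24% of all tested. The 3 Psy1 probe sets, named after their values were seen, differed from each other in the psaA mutant, at -0.62 (called), 0.28 and 0.05. Of the genes that supply precursors, HDS (-0.78) and DXR (-0.76) fell in the psaA mutant and DXS gave -0.12 (adjusted p = 0.643), while in the psbA mutant HDS (-0.70) fell, and DXR (-0.44) and DXS (-0.15) were not called. The lycopene cyclase genes were left out of the list because the array spells them otherwise, and were added after the symbols were seen. Of these CRTL-E-1, the epsilon-cyclase that leads to lutein rather than to the cycle, fell by 0.56 and 0.48 in the psaA and psbA mutants, and LCY1 gave -0.47 and -0.36 and was not called. Several of these calls lay near the threshold and ended with fewer arrays. Without wild-type replicate 1 the psbA calls of HDS (adjusted p = 0.0547) and PSY2 (0.0597) ended, the latter also without wild-type replicate 2. The PDS call in the psbA mutant ended with any 1 of the 6 arrays left out (adjusted p up to 0.214), and that in the psaA mutant without psaA replicate 2 (0.0551). The DXR call ended with any 1 array left out other than psaA replicate 1 (up to 0.166), its difference being -0.49 without psaA replicate 2, and each CRTL-E-1 call with any 1 of the 4 arrays it compares left out (up to 0.0948 and 0.117). The CrtR-b1 call between the mutants ended without psaA replicate 1 or either psbA array (up to 0.079). LCY1 passed in the psaA mutant without either psbA array and in the psbA mutant without psbA replicate 2.

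Most probe sets for steps below the cycle, toward neoxanthin, abscisic acid and carotenoid cleavage, were not called. Of 6 probe sets 2 fell and 0 rose in the psaA mutant, the cleavage genes CCD1B (-0.85) and CCD1A (-0.42), against 6.06% lower and 4.66% higher among all tested, and 0 passed in the psbA mutant in limma, where 1 had an unadjusted p under 0.05. The CCD1A call ended with any 1 of the 4 arrays compared left out (adjusted p up to 0.165). FLACCA, which makes the cofactor of the last abscisic acid step, gave 0.38 in the psaA mutant (adjusted p = 0.0518) and -0.01 in the psbA mutant. NSY, annotated to neoxanthin synthesis, NCED1, which cleaves the xanthophyll precursor of abscisic acid, and AO1, an aldehyde oxidase, lay between -0.09 and 0.17 in both mutants and were not called. The list median was 0.09 in the psaA and -0.09 in the psbA mutant. Further symbols added after they were seen, PTOX, TAO2 and TAO3, lay between -0.25 and 0.11 and were not called.

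**Figure D3:**
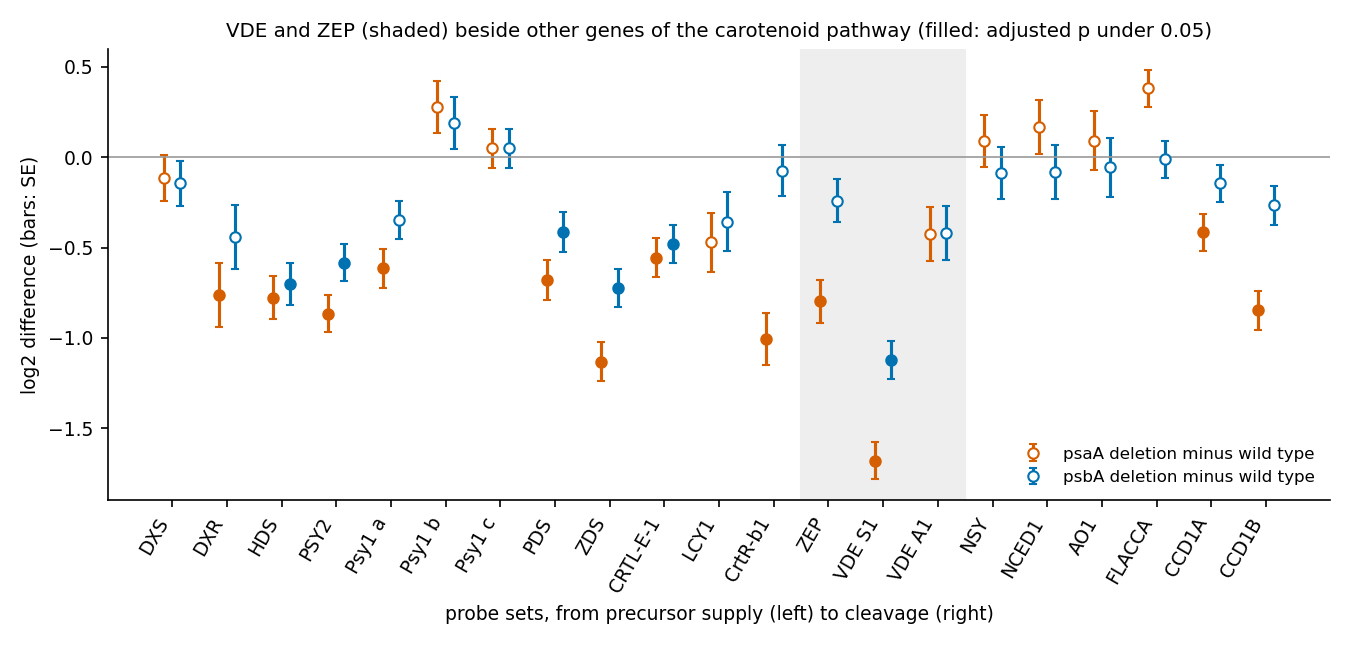
Log2 differences from wild type (vertical axis, bars are SE) in the psaA and psbA mutants for probe sets ordered along the carotenoid pathway, with ZEP and VDE shaded and filled points for an adjusted p under 0.05. The S1 probe set of VDE lies lowest in both mutants, at -1.68 and -1.12. The 3 Psy1 probe sets are marked a, b and c.

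VDE draws on ascorbate and on the proton gradient that electron transport builds, and the genes of these partners did not move one way. Of 13 probe sets for ascorbate metabolism, plastocyanin and related steps, 2 fell and 2 rose in each mutant, against 6.06% lower and 4.66% higher among all tested in the psaA mutant and 5.76% and 5.41% in the psbA mutant. Between the mutants 0 passed in limma, and 1 had an unadjusted p under 0.05, MDHAR, a monodehydroascorbate reductase that restores ascorbate (0.27, adjusted p = 0.222), with IMP2 at -0.23. Both APX2 probe sets, an ascorbate peroxidase that uses ascorbate, rose by 0.63 and 0.59 in the psaA mutant and by 0.45 and 0.48 in the psbA mutant, the latter at -0.038 and -0.015 with poly-A scaling. DHAR2, a dehydroascorbate reductase that restores ascorbate, fell by 0.77 and 0.83, and PETE, the electron carrier plastocyanin, fell by 0.82 and 0.71. In the psaA mutant the APX2 calls ended without psaA replicate 1 (both), psaA replicate 2 (1 of the 2), wild-type replicate 1 or wild-type replicate 2 (1 of the 2 each). In the psbA mutant both ended without either psbA or either wild-type array, and 1 of them also without either psaA array (adjusted p up to 0.174). The DHAR2 call ended without psaA replicate 2 or either wild-type array in the psaA mutant (up to 0.157), and without either psbA array or wild-type replicate 2 in the psbA mutant (up to 0.124). GLDH, the last enzyme of ascorbate synthesis, was at 0.02 and -0.05 and was not called.

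The antenna proteins hold the xanthophylls on which the cycle acts. All 3 antenna probe sets fell in the psaA mutant, CAB4 by 1.21, CAB5 by 0.96 and CAB6A by 0.69, against 6.06% called lower among all tested. In the psbA mutant CAB4 fell by 0.68 and CAB5 by 0.66, against 5.76% of all, and CAB6A gave -0.32 (adjusted p = 0.15). The psbA call of CAB4 ended without psbA replicate 1 or wild-type replicate 1, that of CAB5 without psbA replicate 2 or either wild-type array (adjusted p up to 0.0768 and 0.0789), and the psaA call of CAB6A without psaA replicate 2 or wild-type replicate 2 (up to 0.0727). All 3 showed the order of genotypes seen at S1 and ZEP, against 5.24% of all tested probe sets. In the psaA mutant the ZEP difference of -0.80 lay within the range of these antenna genes, and the S1 difference of VDE lay below that of every probe set in the lists given here, whose lowest was CAB4. In the psbA mutant S1 again lay below every one of them, the lowest being DHAR2 at -0.83. These are rankings of estimates, and the differences between the genes were not tested.

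Leaf mesophyll markers fell in both mutants, as did VDE at S1, while ZEP was called lower only in the psaA mutant and A1 in neither. The counts of markers here stand against 6.06% lower and 4.66% higher among all tested probe sets in the psaA mutant and 5.76% and 5.41% in the psbA mutant. All 5 mesophyll markers fell in both mutants: PSBO, PSBP, PsbQ, and CAB4 and CAB5, which are the antenna probe sets given above. All 5 are photosynthesis genes, so that fewer mesophyll cells and lower expression of photosynthesis genes cannot be told apart by these markers. Their mean on an array was 0.65 to 0.71 in wild type, -0.03 to 0.03 in the psbA mutant and -0.29 to -0.27 in the psaA mutant. Of 6 markers of meristem and dividing cells 3 fell and 0 rose in the psaA mutant and 1 rose in the psbA mutant, with means of 0.11 to 0.25 in wild type, 0.08 to 0.12 in the psbA mutant and -0.32 to -0.30 in the psaA mutant. Of 6 root markers 0 passed in the psaA mutant in limma (1 at an unadjusted p under 0.05), and 1 rose and 1 fell in the psbA mutant, with array means between -0.07 and 0.04. The 1 epidermis marker found, TSW12, did not pass (-0.16 and -0.05), and no xylem marker was found. Values carry no level, so the presence of a marker could not be checked. The difference between the 3' and 5' probe sets of 6 control genes, a sign of RNA quality, moved by -0.13 to 0.31 in the psaA mutant (median 0.28) and by -0.13 to 0.32 in the psbA mutant (median -0.06) from wild type. The part of these in the results for VDE and ZEP was not tested.

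For each member, probe sets nearest in pattern were found by the root mean square (RMS) difference of centred log2 values over the 6 arrays. The search covered 699 probe sets with 1 gene symbol that was not a LOC number and not VDE or ZEP. Nearest to the S1 probe set of VDE were ZDS at 0.249, the antenna gene CAB4 at 0.279, GPAT at 0.28, and PSBP and PsbQ of the oxygen-evolving complex at 0.289 and 0.293, against a median of 0.746 over the 699. Each of these 5 fell in both mutants. Nearest to ZEP, CDKB1, a cyclin-dependent kinase of the mitotic cycle, stood at 0.0881, the cleavage gene CCD1B at 0.0987, P18 at 0.13, CAB6A at 0.149 and MKK3, a MAP kinase kinase, at 0.15, against a median of 0.397. Each of these 5 fell in the psaA mutant and was not called in the psbA mutant, where 3 had an unadjusted p under 0.05. In the psaA mutant the calls ended without psaA replicate 1 for CDKB1, P18 and MKK3, without psaA replicate 2 for CDKB1 and CAB6A, without wild-type replicate 1 for P18, and without wild-type replicate 2 for CDKB1, P18 and CAB6A (adjusted p up to 0.163). The A1 probe set had PMM (phosphomannomutase) at 0.105, CCR1 at 0.113, XTH16 at 0.122, the fructokinase FRK3 at 0.124 and SBT2 at 0.126, against a median of 0.291, and none of these 5 was called in any of the 3 limma comparisons, and neither was A1. At an unadjusted p under 0.05 there were 3 of the 5 in each mutant against wild type and 0 between the mutants. No neighbour was common to the 3 members. Among themselves the members were farther apart, at 0.513 for S1 and ZEP, 0.561 for S1 and A1 and 0.33 for A1 and ZEP. Because the RMS difference counts size as well as direction, genes that moved little lie near A1. The members share all 6 arrays with their neighbours, which were picked for likeness on those arrays. That a neighbour had the calls of its member therefore follows largely from the choice.

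**Figure D4:**
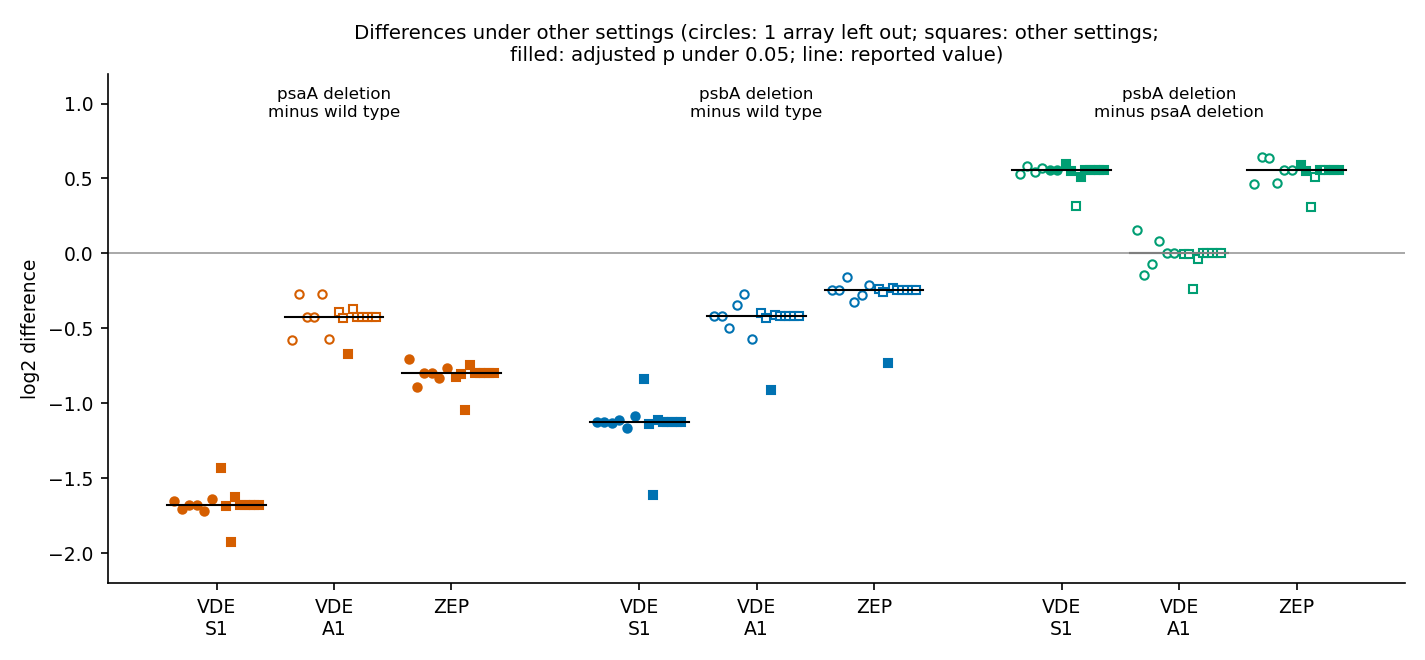
Log2 differences (vertical axis) of the S1 and A1 probe sets of VDE and of ZEP in the 3 comparisons, with 1 array left out (circles) and under other settings (squares), filled where the adjusted p is under 0.05, beside the reported value (line). The falls of S1 in both mutants and of ZEP in the psaA mutant stay filled throughout, while most circles of the psbA minus psaA comparison are open.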

How the data were processed

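RNA from 6 leaf samples was hybridised to Affymetrix tomato arrays from 5.0 ug of total RNA, per the labels' protocols. RMA and GCRMA are named in the submitters' processing notes, without version or role. The deposited log2 values, for 10209 probe sets, had been normalized and centred per probe set by the authors: each median over the 6 arrays was 0 within 1e-06. This removes signal level, so no filter on dim probe sets was possible. The log base is not given in the sources used here.

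Affymetrix controls (108 probe sets) did not enter the tests. Using limma 3.58.1 in R 4.3.3, 1 mean per group was estimated from the 6 arrays together (lmFit, eBayes, with 3 residual and 5.39 prior degrees of freedom). Two-sided p-values were adjusted by Benjamini-Hochberg over 10101 probe sets. The number of arrays limits the precision (median SE 0.125). The fit was also run on simulated normal noise with known changes added. That noise had the spread limma estimated, so this run checks the code and not the noise of these arrays. Symbols came from the platform annotation of 2007 (909 probe sets with a symbol, 9192 with none). The genes named are the members, the 3 smallest p of each pathway list in each comparison (all of a list of 5 or fewer) and the 5 nearest patterns; GLDH, NCED1, AO1 and Psy1 were named after their values were seen. Members and lists were chosen with earlier results of these data known. Plots used matplotlib 3.10.9.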

Additional observations from a re-analysis of the deposited data

Results flagged for a closer look

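A difference between the effects of the deletions, tested as psbA minus psaA, passed for 4 of the probe sets named. Those of VDE at S1 (0.56) and ZEP (0.55) are given above. CCD1B, the cleavage gene near ZEP in pattern, differed by 0.58 (limma adjusted p = 0.0231), and CrtR-b1 by 0.93 (limma adjusted p = 0.0104), both being higher in the psbA mutant on both of its arrays. The CCD1B call ended with any 1 of the 6 arrays left out (adjusted p up to 0.142), and that of CrtR-b1 without psaA replicate 1 or either psbA array (up to 0.079).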

How the results depend on the processing

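The falls of VDE at S1 in both mutants and of ZEP in the psaA mutant passed in all 15 alternatives (6 with 1 array left out, 9 others), S1 at -1.93 to -1.43 in the psaA and -1.61 to -0.84 in the psbA mutant and ZEP at -1.05 to -0.70. These alternatives are not separate checks. Leaving out an array of the group not compared left the difference unchanged, as did settings that change only the model or the probe sets tested. The poly-A scaling gave the lowest and quantile normalization the highest S1 values. With poly-A scaling A1 passed in the psaA (-0.67) and psbA mutants (-0.91), as did ZEP in the psbA mutant (-0.73), and the psbA minus psaA calls of S1 (0.31) and ZEP (0.31) ended. That of ZEP also ended with hybridisation control scaling (0.51, adjusted p = 0.0578) and with only the compared groups fitted (0.55, adjusted p = 0.0759). Without 1 array it was 0.46 to 0.65, and that of S1 0.53 to 0.58. The A1 difference between the mutants, near 0 as deposited, turned to -0.0052 (quantile), -0.0033 (median centring), -0.24 (poly-A) and -0.040 (hybridisation controls), and ran from -0.15 to 0.16 without 1 array. Poly-A scaling turned both APX2 probe sets in the psbA mutant (-0.038 and -0.015) and TAO2 (-0.39). The mean of both VDE probe sets minus ZEP, mutants against wild type, was -0.23 with quantile normalization (exact permutation p = 0.333). In place of the gene means, A1 minus ZEP gave 0.098. The causes were not tested.

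Probe sets called numbered 1083 (psaA), 1128 (psbA) and 402 (psbA minus psaA). Poly-A scaling gave 1725, 6832 and 966, of which 8.06%, 1.33% and 6.21% were higher, against 43.5%, 48.4% and 44.8%, and hybridisation controls 53.8% (psaA) and 32.3% (psbA minus psaA) higher. Testing only probe sets with a symbol gave 139, 120 and 73, from fewer tested, and fitting only the compared groups 266 for psbA minus psaA. Without 1 array the counts ran from 494 to 994, 509 to 842 and 115 to 266.

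The replicate number as a block gave 916, 965 and 301 calls and changed no call of VDE or ZEP (psbA minus psaA: S1 0.56, adjusted p = 0.0452; ZEP 0.55, adjusted p = 0.0469). Deviations of same-numbered arrays correlated at 0.021, -0.0049 and -0.0086, so no pairing by number was seen over all probe sets together. Not every array correlated best with its own number. Whether same-numbered arrays shared a batch was not tested. A filter on dim probe sets was not run, since the values hold no level.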
